A study of Mus musculus with 13 samples.

Results

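Fibrillar collagen is made as a procollagen that is modified, folded and trimmed by a small set of proteins before it can form fibres. Prolyl 4-hydroxylase, a complex of an alpha subunit (P4ha1, P4ha2 or P4ha3) with P4hb, hydroxylates prolines and so stabilises the triple helix, and the lysyl hydroxylases Plod1, Plod2 and Plod3 prepare lysines for glycosylation and cross-linking. Serpinh1 (HSP47) is the collagen chaperone of the endoplasmic reticulum, Bmp1 removes the C-propeptide outside the cell, and Pcolce enhances that cleavage. Fibroblasts are the main producers of fibrillar collagen in scarred lung. These 10 genes were chosen by symbol, and all 10 were found among the 20270 genes of the count and TPM tables and passed the filter on low counts.

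RNA of the lower right lung lobe was sequenced in 13 libraries, each taken as 1 mouse. Control mice were wildtype C57BL/6J given vehicle (n = 4, replicates 3, 21, 24 and 26). WT bleomycin mice were C57BL/6J given a single oropharyngeal dose of 1 U/kg of bleomycin, a DNA-damaging drug that scars the lung, 14 days earlier (n = 5, replicates 4, 2, 5, 4-B2 and 7). CB1R KO bleomycin mice had the same dose and time and lacked Cnr1, the gene of the cannabinoid receptor CB1R, in all cells (n = 4, replicates 8, 9, 10 and 11). The wildtype mice were males bought at 13 weeks of age. The CB1R KO mice were on the C57BL/6J background. Their age is not given in the sources used here, and the paper does not state their sex. No library of a CB1R KO mouse left without bleomycin was analysed here, so the effect of the genotype without bleomycin cannot be told apart from its effect on the response.

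Total estimated counts lay between 14615904 and 16662580 in 12 libraries and reached 53463884 in CB1R KO replicate 11. Cnr1 held 27.0 to 69.0 estimated counts in control, 50.0 to 110 in WT bleomycin and 41.0 to 188 in the libraries labelled CB1R KO, so its counts do not check the genotype and directions rest on the labels. Type II, type I and airway epithelial markers, which define lung tissue, were present in every group, and none of the marker lists had a gene at 0 in all libraries. Values per library are CPM, which are counts scaled to a common library total and composition, and differences are log2 fold changes with standard errors (SE) from edgeR's quasi-likelihood test, with p-values adjusted over all 15315 genes tested and a threshold of 0.05. In whole-lung RNA, fewer cells of a type and less RNA per cell cannot be told apart.

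The upstream 250 bases of 3 members are shown because these genes gave the largest rise with bleomycin (P4ha3), the strongest level after bleomycin together with P4hb (Serpinh1), and the one fall (P4ha1). The sequences are from RefSeq on GRCm38.p6, read 5′ to 3′ toward the transcription start, and come from another build than the Ensembl transcripts on GRCm39 that the authors counted. They lie at chr7:100285270-100285519 on the plus strand for P4ha3, chr7:99353240-99353489 on the minus strand for Serpinh1 and chr10:59323046-59323295 on the plus strand for P4ha1. Capitals mark GGGCGG, the core bound by Sp1-type factors, and ACGTG or GCGTG, the core of the hypoxia response element, on either strand.
P4ha3: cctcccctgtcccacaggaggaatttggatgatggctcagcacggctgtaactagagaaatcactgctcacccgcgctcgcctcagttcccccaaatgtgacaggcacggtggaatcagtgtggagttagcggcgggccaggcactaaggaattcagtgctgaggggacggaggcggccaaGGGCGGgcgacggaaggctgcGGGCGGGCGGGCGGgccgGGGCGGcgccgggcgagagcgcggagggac
Serpinh1: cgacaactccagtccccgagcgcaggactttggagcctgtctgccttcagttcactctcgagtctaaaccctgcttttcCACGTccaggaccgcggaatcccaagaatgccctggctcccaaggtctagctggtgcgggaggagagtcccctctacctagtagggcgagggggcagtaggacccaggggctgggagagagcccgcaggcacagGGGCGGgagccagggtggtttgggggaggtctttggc
P4ha1: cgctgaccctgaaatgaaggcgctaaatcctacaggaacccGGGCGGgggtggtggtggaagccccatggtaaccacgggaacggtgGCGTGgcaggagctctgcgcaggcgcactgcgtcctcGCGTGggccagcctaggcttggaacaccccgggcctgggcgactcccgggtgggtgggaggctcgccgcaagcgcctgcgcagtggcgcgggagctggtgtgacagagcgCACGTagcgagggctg

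A promoter was matched by symbol for 8 of the 10 members, and none was used here for Plod2 and Bmp1. The P4ha3 window held 5 copies of GGGCGG, 3 of them overlapping in 1 run, and neither hypoxia core. The P4ha1 window held 1 GGGCGG, 2 GCGTG and 1 ACGTG (as its complement CACGT). The Serpinh1 window held 1 GGGCGG and 1 ACGTG (as CACGT). Over the 8 windows, both strands searched, GGGCGG was found in 7, GCGTG in 6, ACGTG in 5, CCAAT in 2, and the heat shock core GAANNTTC and the TEAD core GGAATG in 0. Of all 32851 upstream windows of the same length, 32.7% held GGGCGG, 28.2% GCGTG, 16.6% ACGTG, 33.8% CCAAT, 6.69% GAANNTTC and 12.6% GGAATG. The 8 windows were 55.6 to 70.0% G or C, and the windows compared were not matched for this. The counts therefore cannot be read as an excess of any core. These are matches of letters, not measured binding.

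Bleomycin raised most of the collagen-modifying genes in WT lungs. Of the 10 members, 8 rose and 1, P4ha1, fell in WT bleomycin against control lungs. The rises ran from P4ha3, at 15.0-fold, through Bmp1, at 3.14-fold, and Serpinh1, at 2.43-fold, down to Plod2, at 1.21-fold. The median log2 fold change of the members was 0.52, against -0.01 over all genes tested. Among all genes tested, 48.9% passed the threshold in either direction and 25.0% were higher. Every WT bleomycin library lay above every control library for 7 members, where 40.3% of all genes had groups apart in either direction.

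Most members were also higher in CB1R KO bleomycin than in control lungs. In CB1R KO bleomycin against control lungs, 8 members were higher and 0 lower by edgeR, all 10 log2 fold changes being above 0, with a median log2 fold change of 0.45 against -0.01 over all genes, where 35.4% of genes passed in either direction and 19.0% were higher. All 8 had every CB1R KO library above every control library, and 33.5% of all genes had groups apart in this comparison. The 8 were P4ha2, P4ha3, P4hb, Plod1, Plod3, Serpinh1, Bmp1 and Pcolce. Both comparisons use the same 4 control libraries.

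Between the genotypes, 1 member passed the threshold. P4ha3 was lower in CB1R KO than in WT bleomycin lungs, where 0.979% of all genes passed in either direction and 0.620% were lower. Unadjusted p-values were under 0.05 for 3 members, P4ha3, P4ha1 and Bmp1, and for 17.0% of all genes. The median log2 fold change of the members was -0.10, against 0.00 over all genes, with 8 of the 10 below 0. P4ha3 and P4ha1 were the members whose libraries did not overlap between the genotypes, P4ha3 lower and P4ha1 higher in CB1R KO, where 5.60% of all genes had groups apart.

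**Figure D1:**
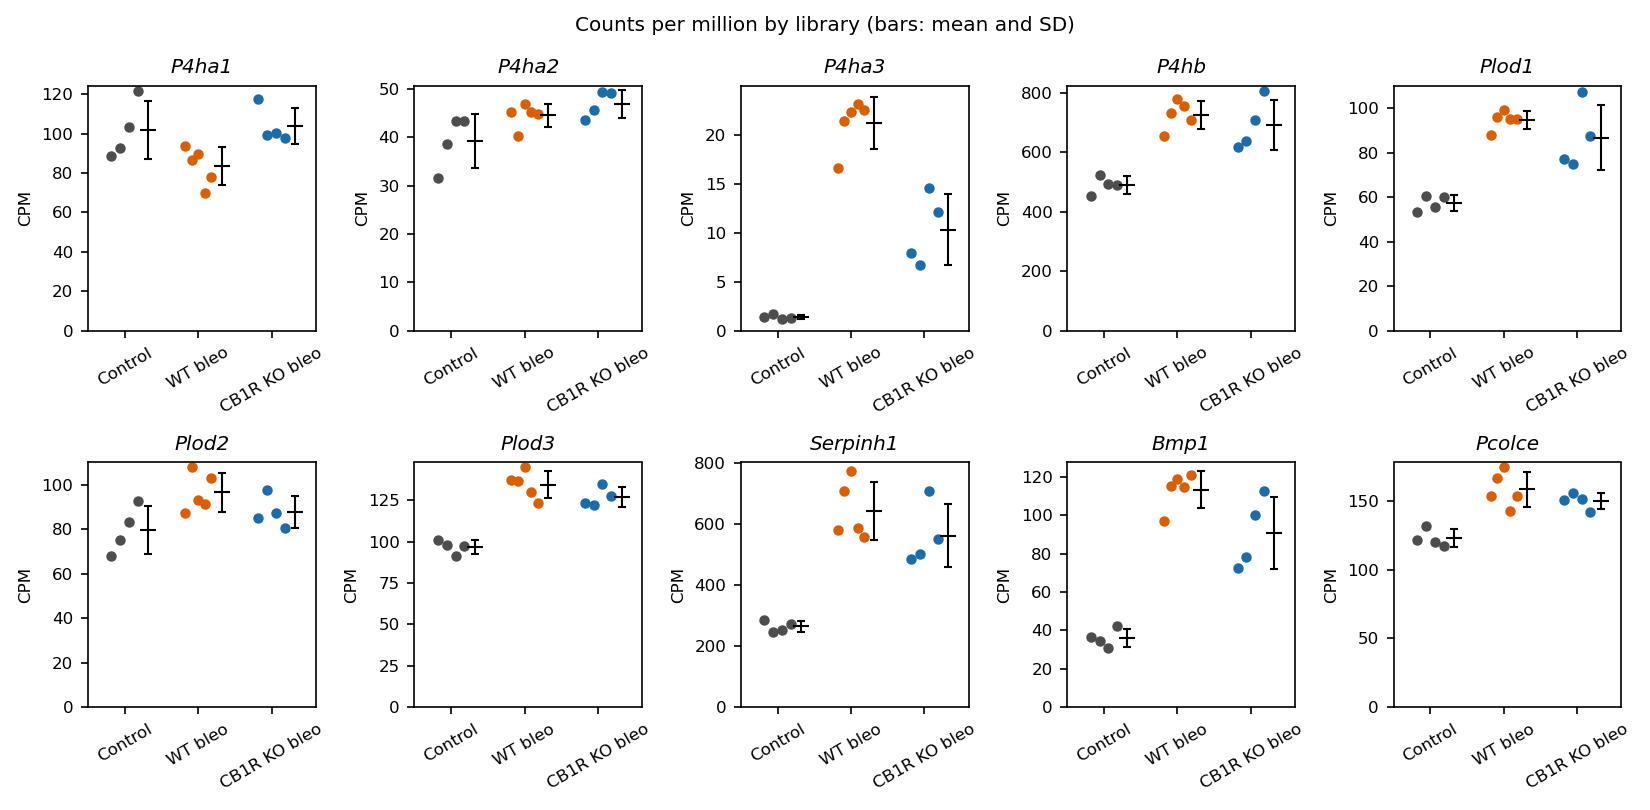
CPM (y axis, from 0) of the 10 members in each library, by group (x axis: 4 control, 5 WT bleomycin, 4 CB1R KO bleomycin), with 1 point per library and the group mean and SD beside the points. P4ha3 lay between 1.22 and 1.74 CPM in control, 16.6 and 23.2 in WT bleomycin and 6.75 and 14.5 in CB1R KO bleomycin.

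**Figure D2:**
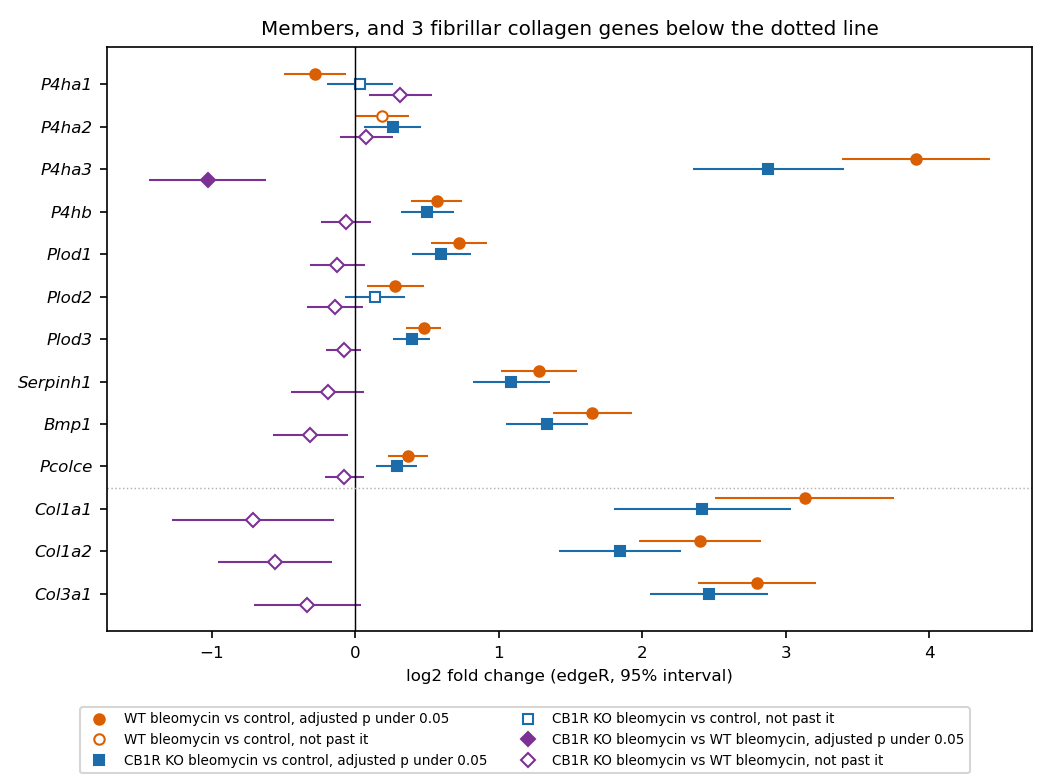
Log2 fold changes (x axis) of the 10 members and, below the dotted line, of 3 collagen genes in the 3 comparisons, with 95% intervals from edgeR. Filled symbols have an adjusted p under 0.05. P4ha3 stands apart at 3.91 in WT bleomycin against control, and it has the one filled symbol between the genotypes, at -1.03.

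The alpha subunits of prolyl 4-hydroxylase, which carry its catalytic site, each behaved differently. P4ha3 held 1.37, 1.74, 1.22 and 1.29 CPM in control replicates 3, 21, 24 and 26, which rested on 19.3 to 29.3 estimated counts per library. In WT bleomycin replicates 4, 2, 5, 4-B2 and 7 it held 16.6, 21.4, 22.3, 23.2 and 22.5 CPM, and in CB1R KO replicates 8, 9, 10 and 11 it held 7.91, 6.75, 14.5 and 12.1 CPM. The 3 groups did not overlap. Replicates 8 and 9 were the lowest of the bleomycin-treated libraries, and replicate 10 came closest to the lowest WT library. The log2 fold change was 3.91 in WT bleomycin against control (SE 0.24, adjusted p = 6.22e-08) and 2.88 in CB1R KO bleomycin against control (SE 0.25, adjusted p = 2.06e-06). Between CB1R KO and WT bleomycin it was -1.03 (SE 0.19, 95% interval -1.44 to -0.62, adjusted p = 0.0266), a level 0.490 times that of WT. The direction held in all 24 alternative settings, with log2 fold changes from -1.22 to -0.88, and 15 of the 24 passed the threshold. Within the libraries whose labels are spelled in lower case, which hold 3 WT and all 4 CB1R KO bleomycin libraries, the log2 fold change was -0.96 with an adjusted p of 0.206. The call was also lost on leaving out WT replicate 2, 5, 4-B2 or 7, or CB1R KO replicate 8, 9 or 11, with adjusted p between 0.0566 and 0.0951.

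P4ha1, the widely expressed alpha subunit and a known hypoxia-inducible gene, went the other way. Its CPM was 88.7, 92.8, 104 and 122 in control, 94.0, 86.5, 89.6, 70.1 and 77.9 in WT bleomycin, and 118, 99.6, 101 and 98.0 in CB1R KO bleomycin lungs. WT bleomycin libraries were below all controls in 3 of 5 cases, and all 4 CB1R KO libraries were above all WT bleomycin libraries and within the range of the controls. In WT bleomycin against control the log2 fold change was -0.28 (SE 0.10, adjusted p = 0.0335). It shrank to -0.07 (adjusted p = 0.544) within the libraries with lower-case labels. It lost the threshold without control replicate 24 or 26, or WT replicate 4-B2 or 7 (-0.27 to -0.19, adjusted p = 0.0712 to 0.126). On TPM, with limma and a pseudocount of 1, it was -0.22 (adjusted p = 0.114). CB1R KO differed from WT bleomycin by 0.31 (SE 0.10, 95% interval 0.09 to 0.53, adjusted p = 0.146), and from control by 0.03 (SE 0.11, 95% interval -0.20 to 0.26, adjusted p = 0.846).

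P4ha2, the third alpha subunit, had the smallest differences of the 3 in WT bleomycin against control and between the genotypes. It held 31.6, 38.6, 43.4 and 43.4 CPM in control, 45.4, 40.3, 46.9, 45.3 and 44.9 in WT bleomycin, and 43.6, 45.7, 49.3 and 49.2 in CB1R KO bleomycin lungs. Control replicate 3 was below the other controls. The log2 fold change against control was 0.18 in WT bleomycin (SE 0.09, adjusted p = 0.1004), which passed with limma on TPM (0.28, adjusted p = 0.0130), and 0.26 in CB1R KO bleomycin (SE 0.09, adjusted p = 0.0410). The latter lost the threshold without control replicate 3 or 21 or without CB1R KO replicate 9, 10 or 11 (0.17 to 0.28), and when the 2 groups were fitted alone. Between the genotypes it was 0.08 (95% interval -0.11 to 0.26).

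P4hb, the shared beta subunit and also a protein disulfide isomerase of the endoplasmic reticulum, was higher in both bleomycin groups than in control. Control libraries held 452, 524, 492 and 491 CPM, WT bleomycin libraries 652, 732, 778, 755 and 707, and CB1R KO libraries 618, 638, 708 and 804. Every bleomycin library was above every control. The log2 fold change against control was 0.57 in WT (SE 0.08, adjusted p = 6.53e-05) and 0.50 in CB1R KO (SE 0.09, adjusted p = 5.49e-04), and the genotypes differed by -0.07 (95% interval -0.24 to 0.11).

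The subunit make-up of prolyl 4-hydroxylase transcripts shifted with bleomycin. On the TPM scale, which is per transcript length, P4ha3 made up 1.33, 1.69, 0.969 and 0.925% of the summed P4ha1, P4ha2 and P4ha3 in control, 11.7, 16.3, 15.8, 18.5 and 17.3% in WT bleomycin and 5.62, 5.22, 9.79 and 8.42% in CB1R KO bleomycin libraries. The 3 groups did not overlap. Against control, the share rose in WT bleomycin by 14.7 percentage points (15.9 ± 2.54 SD, n = 5, against 1.23 ± 0.356, n = 4; two-sided exact permutation test, p = 0.0159, adjusted p = 0.0476), and it was lower in CB1R KO than in WT bleomycin, with a difference of -8.65 points (7.26 ± 2.21 SD, n = 4; exact permutation test, p = 0.0159, adjusted p = 0.0476). These p-values are the smallest that 4 libraries against 5 allow, and adjustment was over 18 tests of 6 measures in 3 comparisons. Both calls passed in only 2 of 15 alternative settings each (exact permutation test, adjusted p up to 0.18). With 4 libraries against 4, the smallest exact permutation p is 0.0286, which adjusted to 0.0514 here, and no share or ratio passed between CB1R KO bleomycin and control. In 14 of 15 alternative settings none passed there either. The 1 exception was leaving out WT bleomycin replicate 4, which changes the adjustment and no value of these 2 groups. In it 4 of the 6 measures passed (exact permutation test, adjusted p = 0.0468), the P4ha3 share among them. P4ha1 made up 62.3 to 66.5% in control, 43.2 to 52.0% in WT bleomycin and 54.5 to 62.3% in CB1R KO bleomycin, ranges that adjoin without overlap, and P4ha2 stayed between 32.1 and 38.4% in all libraries. The sum of the 3 alpha subunits was 78.2 ± 8.75 TPM (SD, n = 4) in control, 89.9 ± 7.07 (n = 5) in WT bleomycin and 98.1 ± 5.53 (n = 4) in CB1R KO bleomycin lungs. Relative to P4hb, that sum was lower in WT bleomycin than in control, with log2 ratios of -2.28 ± 0.14 (SD, n = 5) against -1.87 ± 0.15 (n = 4; exact permutation test, adjusted p = 0.0476). That call passed in 2 of 15 alternative settings. The CB1R KO ratio was -2.15 ± 0.32 (n = 4) and overlapped both groups. It includes replicate 11, where P4hb had 0.734 TPM per CPM against 0.574 to 0.623 in the other libraries.

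**Figure D3:**
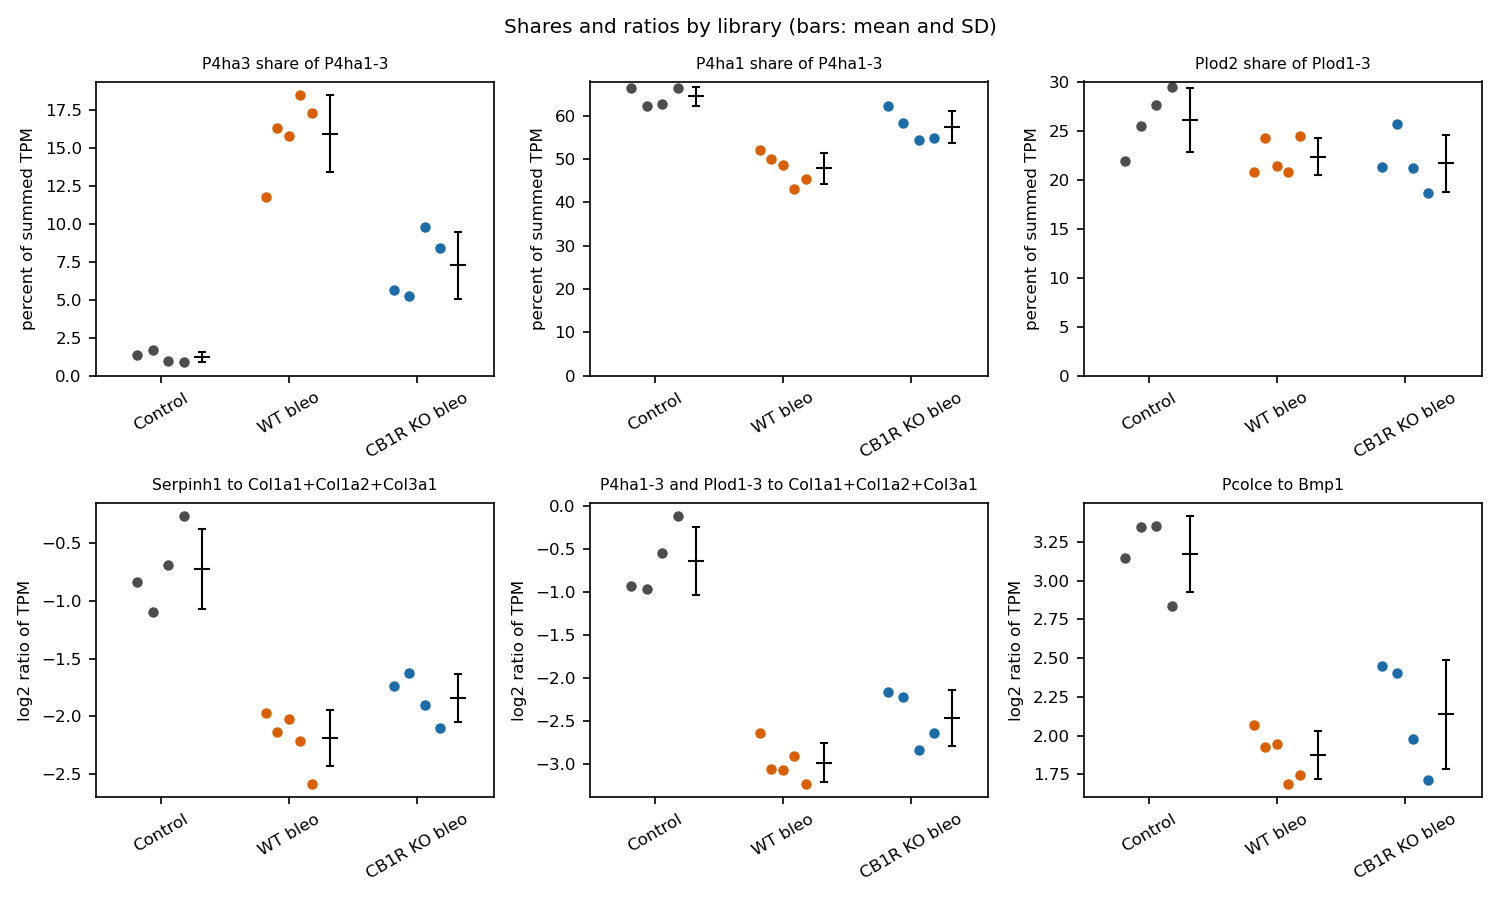
Shares (percent of summed TPM, y axis from 0) and log2 ratios of TPM (y axis) in each library by group (x axis), with 1 point per library and the group mean and SD. P4ha3 rises from 1.23% of the alpha subunits in control to 15.9% in WT bleomycin and 7.26% in CB1R KO bleomycin, and the log2 ratio of Serpinh1 to the 3 collagens falls from -0.72 to -2.18 and -1.84.

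All 3 lysyl hydroxylases rose with bleomycin in WT lungs, by less than P4ha3, Bmp1 or Serpinh1. Plod1 held 53.5, 60.5, 55.5 and 60.1 CPM in control, 87.9, 96.2, 99.3, 95.2 and 95.1 in WT bleomycin and 77.4, 74.8, 107 and 87.7 in CB1R KO bleomycin lungs. All bleomycin libraries were above all controls. Among CB1R KO libraries, 3 were below every WT library and replicate 10 was above every WT library. Plod1 was above control by 0.72 on the log2 scale in WT bleomycin (SE 0.09, adjusted p = 2.04e-05) and by 0.60 in CB1R KO bleomycin (SE 0.10, adjusted p = 3.22e-04), with -0.13 between the genotypes (95% interval -0.32 to 0.07).

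Plod3, which also has glycosyltransferase activity, held 101, 97.7, 91.2 and 97.2 CPM in control, 137, 137, 145, 130 and 123 in WT bleomycin and 123, 122, 135 and 127 in CB1R KO bleomycin lungs. The bleomycin libraries lay above all controls, and the genotypes overlapped. The log2 fold change against control was 0.48 in WT (SE 0.06, adjusted p = 1.39e-05) and 0.39 in CB1R KO (SE 0.06, adjusted p = 2.27e-04), and -0.08 between genotypes (95% interval -0.21 to 0.04).

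Plod2, which hydroxylates the telopeptide lysines used in the cross-links of scar collagen, had the smallest rise of the 3. Its CPM was 68.0, 75.0, 83.5 and 92.9 in control, 87.5, 108, 93.2, 91.4 and 103 in WT bleomycin and 85.0, 97.7, 87.3 and 80.9 in CB1R KO bleomycin lungs. Control replicates 24 and 26 were within the range of the bleomycin libraries. The rise in WT was 0.28 (SE 0.09, adjusted p = 0.0226), and it lost the threshold without control replicate 3 or 21 or WT replicate 2 (0.21 to 0.25, adjusted p = 0.0577 to 0.0744). CB1R KO differed from control by 0.13 (95% interval -0.07 to 0.34, adjusted p = 0.300) and from WT bleomycin by -0.14 (95% interval -0.34 to 0.05, adjusted p = 0.456). As a share of the summed lysyl hydroxylase TPM, Plod2 was 26.1 ± 3.27% (SD, n = 4) in control, 22.3 ± 1.88% (n = 5) in WT bleomycin and 21.7 ± 2.93% (n = 4) in CB1R KO bleomycin. The first 2 of these overlapped (exact permutation test, adjusted p = 0.0879).

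Serpinh1 more than doubled with bleomycin in WT lungs. It held 285, 247, 254 and 274 CPM in control, 582, 708, 777, 589 and 559 in WT bleomycin and 485, 504, 711 and 551 in CB1R KO bleomycin lungs. Each bleomycin library was above the highest control, and in CB1R KO, replicates 8, 9 and 11 were below every WT library while replicate 10 was above 4 of them. The log2 fold change against control was 1.28 in WT (SE 0.12, adjusted p = 1.68e-06) and 1.09 in CB1R KO (SE 0.13, adjusted p = 2.41e-05). The difference between the genotypes was -0.19 (SE 0.12, 95% interval -0.45 to 0.06, adjusted p = 0.438).

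Bmp1, whose transcripts for its shorter and longer protease forms are summed here, was 3.14 times as high in WT bleomycin as in control lungs. Control libraries held 36.6, 34.5, 31.1 and 42.5 CPM, WT bleomycin libraries 97.1, 115, 119, 115 and 121, and CB1R KO libraries 72.8, 78.2, 100.02 and 113. Bleomycin and control libraries were far apart, and replicates 8 and 9 were below every WT bleomycin library. The log2 fold change was 1.65 in WT (SE 0.13, adjusted p = 3.13e-07) and 1.33 in CB1R KO (SE 0.13, adjusted p = 6.86e-06), and the genotypes differed by -0.32 (SE 0.12, 95% interval -0.58 to -0.05, adjusted p = 0.208). Its enhancer Pcolce moved less, with 122, 132, 120.1 and 117 CPM in control, 154, 167, 175, 143 and 154 in WT bleomycin and 151, 156, 151 and 142 in CB1R KO bleomycin lungs. No bleomycin library fell into the range of the controls. Pcolce was above control by 0.37 in WT bleomycin (SE 0.06, adjusted p = 3.01e-04) and by 0.29 in CB1R KO bleomycin (SE 0.07, adjusted p = 0.00445), and differed by -0.08 between genotypes (95% interval -0.22 to 0.06). The ratio of enhancer to protease fell in WT bleomycin. The log2 ratio of Pcolce to Bmp1 TPM was 3.17 ± 0.24 (SD, n = 4) in control and 1.87 ± 0.15 (n = 5) in WT bleomycin (exact permutation test, adjusted p = 0.0476), and 2.14 ± 0.35 (n = 4) in CB1R KO bleomycin, where replicates 8 and 9 were above every WT library. The call between WT bleomycin and control passed in 2 of 15 alternative settings.

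By mean TPM in control lungs, the order was P4hb (284), Serpinh1 (190), Pcolce (130), Plod3 (63.1), P4ha1 (50.4), Plod2 (32.1), Plod1 (28.1), P4ha2 (26.8), Bmp1 (14.5) and P4ha3 (0.943). In that order Plod3 overlapped P4ha1, Plod2 overlapped Plod1 and Plod1 overlapped P4ha2. In WT bleomycin lungs Serpinh1 (470) and P4hb (438) led and overlapped, Bmp1 (46.5) had moved up among Plod1 (47.9) and P4ha1 (43.2), and P4ha3 (14.2) stayed last. CB1R KO bleomycin lungs had P4hb (443) and Serpinh1 (421) at the top, overlapping, and P4ha3 (7.16) last.

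The collagen mRNAs had larger log2 fold changes against control than any member other than P4ha3. Col1a1, Col1a2 and Col3a1, the chains of types I and III collagen and substrates of these enzymes, were above control in WT bleomycin by 3.13, 2.40 and 2.80 on the log2 scale, and in CB1R KO bleomycin by 2.42, 1.84 and 2.46. Between the genotypes they differed by -0.71 (adjusted p = 0.190), -0.56 (adjusted p = 0.149) and -0.34 (adjusted p = 0.347). None of the 3 passed with edgeR, 2 had an unadjusted p under 0.05, and DESeq2 called 1. Their summed TPM was 318 ± 69.4 (SD, n = 4) in control, 2135 ± 298 (n = 5) in WT bleomycin, 6.71 times as high, and 1529 ± 391 (n = 4) in CB1R KO bleomycin lungs.

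Relative to those collagens, the chaperone and the hydroxylases were lower in WT bleomycin than in control lungs. The log2 ratio of Serpinh1 to the 3 collagens was -0.84, -1.09, -0.69 and -0.27 in control, -1.97, -2.13, -2.02, -2.22 and -2.58 in WT bleomycin and -1.73, -1.62, -1.90 and -2.10 in CB1R KO bleomycin libraries. WT bleomycin lay wholly below control (difference -1.46, exact permutation test, adjusted p = 0.0476). The 6 hydroxylase genes together had a log2 ratio to the collagens of -0.63 ± 0.39 (SD, n = 4) in control, -2.98 ± 0.22 (n = 5) in WT bleomycin and -2.46 ± 0.33 (n = 4) in CB1R KO bleomycin. The difference between WT bleomycin and control was -2.35 (exact permutation test, adjusted p = 0.0476). This call and the one for Serpinh1 each passed in 2 of 15 alternative settings. CB1R KO minus WT bleomycin was 0.52 for the hydroxylases (exact permutation test, p = 0.0317, adjusted p = 0.0519) and 0.34 for Serpinh1 (exact permutation test, p = 0.0635, adjusted p = 0.0879), with overlap in both. In CB1R KO replicate 11, Col3a1 had 0.274 TPM per CPM against 0.310 to 0.348 in the other libraries. Plod3 had 0.813 there against 0.597 to 0.766. Both raise the ratios of that library.

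The rest of the collagen biosynthesis machinery was covered by 28 further genes, of which 27 passed the count filter and Tll2 did not. In WT bleomycin against control, 14 rose and 3 fell, where 48.9% of all genes passed the threshold in either direction and 25.0% were higher. The median log2 fold change was 0.40, against -0.01 over all genes. In CB1R KO bleomycin against control, 12 were higher and 4 lower, where 35.4% of all genes passed in either direction and 19.0% were higher. The median was 0.19, against -0.01 over all genes. Adamts2, which removes the N-propeptide, had the highest log2 fold change in both comparisons, at 1.87 (SE 0.10, adjusted p = 3.24e-08) and 1.72 (SE 0.11, adjusted p = 1.89e-07). It went from 55.7 to 76.2 CPM in control to 202 to 256 in WT and 187 to 241 in CB1R KO bleomycin libraries. Fkbp10, a prolyl isomerase chaperone that acts on collagen, was higher by 1.37 and 0.96, and P3h1, a prolyl 3-hydroxylase, by 1.03 and 0.67. The galactosyltransferase Colgalt1 was higher by 0.88 and 0.68. The lowest were Pcolce2, a relative of Pcolce (-1.85 and -1.04), Colgalt2 (-1.48 and -1.04) and P3h2 (-0.69 and -0.70). Each of these 3 families thus held a member that was higher and one that was lower in both comparisons.

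Between the genotypes, 22 of the 27 genes had a log2 fold change below 0, with a median of -0.17 against 0.00 over all genes. An unadjusted p under 0.05 was found for 12, where 17.0% of all genes had one. The threshold was passed by 2, where 0.979% of all genes passed it. Pcolce2 was higher in CB1R KO than in WT bleomycin lungs (0.81, SE 0.17, adjusted p = 0.0413) and Furin, a protease that activates Bmp1 and Adamts precursors, was lower (-0.36, SE 0.08, adjusted p = 0.0411). Pcolce2 held 303 to 320.3 CPM in control, 76.5 to 94.97 in WT bleomycin, and 201, 190, 90.5 and 126 in CB1R KO replicates 8, 9, 10 and 11. Replicate 10 was within the WT range, and the other CB1R KO libraries lay between WT bleomycin and control. Furin held 177, 188, 211 and 186 CPM in those 4 libraries, 211 to 275 in WT bleomycin and 148 to 153 in control. For Furin the genotypes did not overlap, although replicate 10 and WT replicate 4 were nearly equal (210.7 and 211.0). Both calls rest on few libraries. Pcolce2 passed in 9 and Furin in 11 of 24 alternative settings, with adjusted p up to 0.252 and 0.276, and both kept their direction in all 24. Fkbp10 and P3h1 differed by -0.41 (adjusted p = 0.0735) and -0.36 (adjusted p = 0.0843).

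**Figure D4:**
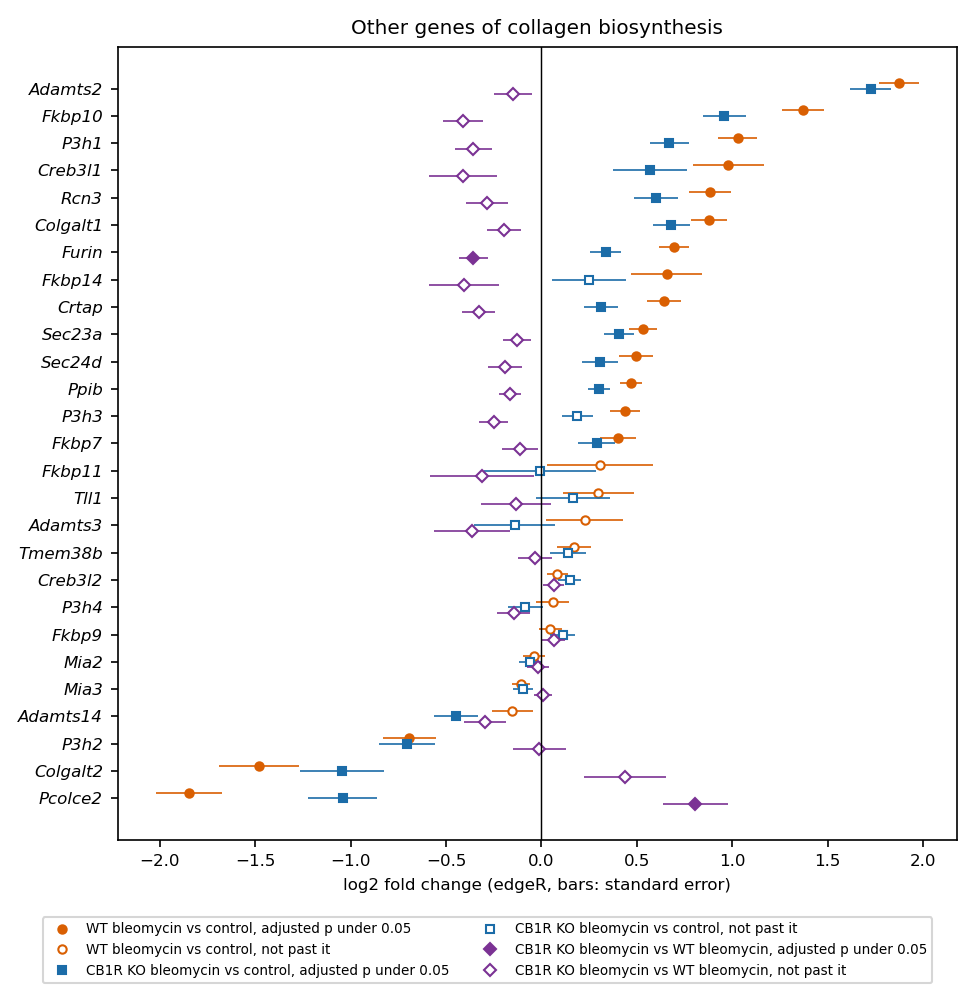
Log2 fold changes (x axis) of the 27 other collagen biosynthesis genes tested, in the 3 comparisons, with SE from edgeR and filled symbols at an adjusted p under 0.05. Adamts2 is highest at 1.87 and Pcolce2 lowest at -1.85 in WT bleomycin against control, and Furin and Pcolce2 carry the 2 filled symbols between the genotypes.

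Most general folding genes of the endoplasmic reticulum were also higher in the bleomycin groups than in control. Of 20 such genes, 14 rose and 2 fell in WT bleomycin against control, where 48.9% of all genes passed in either direction. The median log2 fold change was 0.40, against -0.01 over all genes. In CB1R KO bleomycin against control, 14 were higher and 0 lower by edgeR (16 at an unadjusted p under 0.05), where 35.4% of all genes passed. Their median was 0.45, against -0.01 over all genes. Sdf2l1, a component of the chaperone complex of that compartment, was highest in WT (1.34, SE 0.14, adjusted p = 3.60e-06), and Ero1b, an oxidase that serves the disulfide isomerases, was lowest (-0.45, SE 0.10, adjusted p = 0.00167). Between the genotypes, edgeR called 0 of 20, with 1 at an unadjusted p under 0.05, against 0.979% and 17.0% of all genes. DESeq2 and limma on TPM also called 0 of the 20.

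Marker genes of several cell types moved in the same comparisons. Markers of activated fibroblasts and myofibroblasts were higher for 7 of 7 genes in WT bleomycin against control, and their summed TPM went from 548 to 618 in control to 897 to 1243 in WT bleomycin and 688 to 810 in CB1R KO bleomycin libraries. Between the genotypes 1 of these 7, Tagln, was lower (-0.63, SE 0.10, adjusted p = 0.0177). Resident fibroblast markers summed to 3914 to 4712 TPM in control, 1278 to 1875 in WT and 1883 to 3060 in CB1R KO bleomycin libraries, where replicates 8 and 9 were highest. Of these 7 genes, 3 (Inmt, Tcf21 and Npnt) were lower in WT bleomycin than in control, with a median log2 fold change over all 7 of -0.07, and 1, Inmt, was higher in CB1R KO than in WT. Type II cell markers summed to 31786 to 37152 TPM in control, 18960 to 22654 in WT and 23678 to 37202 in CB1R KO bleomycin libraries. Of these 6 genes, 5 were lower in WT bleomycin than in control, and 3 were higher in CB1R KO than in WT. Markers of cardiac and striated muscle were lower in WT bleomycin than in control for 5 of 5 genes tested (median log2 fold change -2.15), endothelial markers for 4 of 5 and airway epithelial markers for 3 of 5. The other endothelial marker, Vwf, was higher (0.55, SE 0.13, adjusted p = 0.00249). Type I markers were lower for 2 and higher for 1 of 5, adipocyte markers lower for 2 of 5, and mesothelial markers lower for 1 and higher for 1 of 4. Of all 15315 genes tested, 3834 were higher and 3658 lower in this comparison. Macrophage markers were higher than control for 5 of 7 genes in each bleomycin group. The other 8 lists (type I, endothelial, airway epithelial, macrophage, adipocyte, mesothelial, cartilage and muscle markers) had 0 of 37 tested genes past the threshold between the genotypes by edgeR, with 19 at an unadjusted p under 0.05. Of all genes, 0.979% passed there and 17.0% had an unadjusted p under 0.05. DESeq2, which tested 44 genes of these 8 lists, called 4. The part of these shifts in the members' results was not tested.

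Over the 13 libraries, the genes whose log2 CPM was most like the mean standardized log2 CPM of the 10 members were Skil, Thbs4, Gspt1, Chodl and Fbn2, with Pearson r from 0.977 to 0.983. For the deviations from group means, which remove the differences between groups, r was 0.611 to 0.777. For P4ha3 alone, a search chosen after its values were seen, the nearest were Serpine2, Sh3pxd2b, Col5a2, Fstl1 and Ltbp2, with r from 0.992 to 0.995 and 0.846 to 0.946 for the deviations. The libraries share group and processing, so these are descriptions. Within CB1R KO, replicate 10 was the highest library for 5 of the 10 members and the lowest for 0, and replicates 8, 9 and 11 were the lowest for 4, 3 and 3.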

How the data were processed

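Lung RNA libraries (NEBNext Ultra II, poly(A), paired-end HiSeq reads) were quantified by the authors with Kallisto on Ensembl mouse transcripts (GRCm39), and the authors deposited unnormalized estimated counts and TPM values in which all protein-coding transcripts of a gene were added up. Genes are listed by symbol. Of the columns of the TPM table, 1 belongs to another sample and was not used. Reads shared between transcripts are split by the estimate, so isoforms are not told apart here.

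Here, estimated counts were rounded, filtered with filterByExpr (15315 genes left), scaled by TMM and tested with edgeR 4.0.16 (quasi-likelihood test, R 4.3.3), fitting all 13 libraries with 1 coefficient per group and no covariates, and with Benjamini-Hochberg adjustment at 0.05. Intervals are at 95%. Between WT bleomycin and control the median SE over genes was 0.11 (log2), the precision this depth and number of mice gave. Log2 CPM used a prior count of 2. Levels between genes, shares and ratios used TPM and two-sided exact permutation tests (scipy 1.17.1). Alternatives were no filter, at least 10 counts, RLE and upper-quartile scaling, DESeq2 1.42.0, limma 3.58.1 on log2 TPM (pseudocounts 1 and 0.1), 2 groups alone, the spelling of the labels (lower case or with capitals) as a term, only lower-case labels, each library left out, and replicate 11 thinned. The test was checked on simulated counts.

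The members and lists were chosen with earlier results of these data known. The genes named were all 10 members, 3 collagen substrates, the 3 highest and 3 lowest of the other collagen genes past the threshold per comparison and any past it between genotypes, the extremes of the folding genes, and the 5 most similar genes. Each library was taken as 1 mouse, as the paper's group sizes match the number of libraries. The labels of WT bleomycin replicates 4 and 4-B2 share a number, and they do not say what B2 means. Promoters were matched by symbol from a RefSeq table on GRCm38.p6.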

Additional observations from a re-analysis of the deposited data

Results flagged for a closer look

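Within groups of 4 or 5 libraries, 51 sets of values (10 members, 6 shares and ratios and the library total, in 3 groups) were tested for a library far from the others by Dixon's test, which flags about 1 in 20 sets by chance, and 4 were found. WT bleomycin replicate 4 was lowest for P4ha3, at 16.6 CPM against 21.4 for the next library, and for Bmp1, at 97.1 CPM against 115. CB1R KO replicate 8 was highest for P4ha1, at 118 CPM against 101. CB1R KO replicate 11 had a total of 53463884 estimated counts against 16605421 for the next CB1R KO library. Without WT replicate 4, P4ha3 differed between the genotypes by -1.11 on the log2 scale (edgeR, adjusted p = 0.0252), and without CB1R KO replicate 8, P4ha1 differed by 0.25 (adjusted p = 0.354).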

How the results depend on the processing

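The counts of members called against control varied little, from 8 to 9 of 10 in WT bleomycin and from 7 to 8 in CB1R KO bleomycin over all 24 alternatives. Counts between the genotypes depended on the setting, and the cause was not tested. The 1 member called, P4ha3, became 0 with label spelling as a term (2 members at an unadjusted p under 0.05) and with only lower-case labels (3 members), and 0 to 1 on leaving out a library. Of the other collagen genes, 2 were called, against 5 with DESeq2, 1 with limma on TPM at either pseudocount, 0 in the fit of 2 groups alone, with label spelling as a term and with only lower-case labels, and 0 to 5 on leaving out a library. Over all genes, 150 became 640 with DESeq2, 93 with limma and a pseudocount of 0.1, 88 in the fit of 2 groups alone, 41 with label spelling as a term, 6 with only lower-case labels, and 1 to 653 on leaving out a library, the lowest without CB1R KO replicate 9 and the highest without replicate 10. Thinning replicate 11, chosen after its total was seen, kept 1 member called. Shares and ratios past the threshold numbered 5 in WT bleomycin against control, 1 between the genotypes and 0 in CB1R KO bleomycin against control. With only lower-case labels these became 0, 0 and 0, and on leaving out a library 0 to 5, 0 to 2 and 0 to 4. The counts with only lower-case labels were fixed in advance, because no exact permutation p can be under 0.05 with so few libraries. Among those libraries the P4ha3 share still differed by 13.3 points in WT bleomycin against control and by -7.35 points between the genotypes. The exact permutation test over fewer libraries has a larger smallest p. CPM in place of TPM changed none of these 3 counts. The P4ha3 share kept its direction in all 15 alternatives in each comparison. Each of the 5 calls in WT bleomycin against control, and the 1 between the genotypes, nevertheless passed in only 2 of the 15. In the other settings the adjusted p was 0.0514 to 0.18 (exact permutation test). Leaving out a CB1R KO library, which changes no value of WT bleomycin or control, also lost the 5 calls (adjusted p = 0.0571). No paired analysis was possible because the groups share no replicate numbers.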
